A study of Mus musculus with 6 samples.

Results

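The 5 genes described here are the chemokine receptor gene Cxcr4, the genes of its ligands Cxcl12 and Mif, and the genes of its partner receptors Ackr3 and Cd74. They were picked by gene symbol from the 53647 genes of the deposited table, where each symbol had 1 row. Macrophages were taken from orthotopic tumours of pancreatic ductal adenocarcinoma (PDAC) in C57BL/6 mice, sorted on Cxcr4, and sequenced as 6 libraries of total RNA, 3 of Cxcr4+ and 3 of Cxcr4- cells. No further treatment or engineered allele is given for either group, nor the age or sex of the mice, the tumour cells implanted or the sorting antibodies. Whether separate mice stand behind the 3 replicates is not stated, so p-values here measure the spread between libraries only, and that spread may be technical.

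Cxcr4 is a G protein-coupled receptor of leukocytes. When Cxcl12 binds it, inhibitory G proteins are released, leukocytes migrate along the chemokine gradient, and the receptor is then phosphorylated, bound by arrestins and taken into the cell. Ackr3 binds the same chemokine without classical G protein signalling and removes it from the surroundings. Mif is a cytokine that binds Cd74 at the cell surface and can also engage Cxcr4. Inside antigen-presenting cells Cd74 is the invariant chain, the chaperone of MHC class II molecules.

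Depth and cell identity set the frame for these values. The libraries held 46444934 to 55740671 estimated counts, and 19457 to 20433 genes stood above 0. Levels are given as FPKM, fragments scaled to gene length and library size, which allows genes to be set beside each other. All 11 macrophage markers examined were above 0 in at least 1 library. Cd68, Lyz2, Csf1r and Adgre1 had means of 1115, 6344, 79.5 and 20.4 FPKM. The complement genes C1qa and C1qb, markers of many tissue macrophages, were low, at 0.361 to 0.435 and 0.176 to 1.22 FPKM in Cxcr4+ libraries. In Cxcr4- libraries they had at most 0.137 and 0.0619 FPKM. These rest on at most 8 and 4 counts, under the floor of 12 counts described below. Their groups lay apart, as for 5.50% of all genes tested with Cxcr4+ higher. Mertk lay apart the other way, as did 780 of the 16031 genes tested. It had 1.33 to 1.79 FPKM in Cxcr4+ and 1.88 to 2.02 in Cxcr4- libraries. For the other macrophage markers the groups overlapped, and no macrophage marker passed the test. The summed markers of B cells reached at most 0.621 FPKM, those of dendritic cells at most 0.178 those of endothelial cells at most 0.455 and those of T cells, mostly Lck, at most 1.77. The B cell sum was highest in Cxcr4+ replicate 3 (0.621 FPKM, 0.156 to 0.331 in the other 5 libraries) and the endothelial sum in Cxcr4+ replicate 2 (0.455 FPKM, 0.134 to 0.244 in the others). Larger sums that differed by library or group were those of fibroblasts and of epithelial or tumour cells. The fibroblast sum was 17.4, 3.55 and 4.26 FPKM in Cxcr4+ replicates 1 to 3 and 2.37 to 3.31 in Cxcr4- libraries. The epithelial or tumour sum was 1.76 to 3.38 FPKM in Cxcr4+ and 3.52 to 6.08 in Cxcr4- libraries, so the groups lay apart. For Epcam, Krt18 and Lgals4 they lay apart as well, with Cxcr4+ lower, as for 780 of the 16031 genes tested. For the other epithelial or tumour markers the groups overlapped, and none of these markers passed the test. The part of such cells in the levels below was not tested. Whether a gene listed at 0 in all 6 libraries was absent or was not counted cannot be told from the table, so such zeros are given as listed. In such bulk libraries fewer cells of a type and less RNA per cell cannot be told apart.

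The genes of the axis spanned a wide range of levels, and their order was almost the same in every library. Mif was highest, at 713 ± 75.6 FPKM (SD, n = 6 libraries), followed by Cd74 at 178 ± 17.9, Cxcr4 at 8.35 ± 1.33 and Cxcl12 at 0.0851 ± 0.0910. Mif ranked between 65 and 90 among the genes above 0 of a library, Cd74 between 276 and 328, and Cxcr4 between 3973 and 5816. The lowest Mif value, 639.6 FPKM, lay above the highest Cd74 value, 195.7. The lowest Cd74 value, 153.0, lay above the highest Cxcr4 value, 9.59, and the lowest Cxcr4 value, 5.97, above the highest Cxcl12 value, 0.266. Cxcl12 and Ackr3 overlapped at the bottom of the order.

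**Figure D1:**
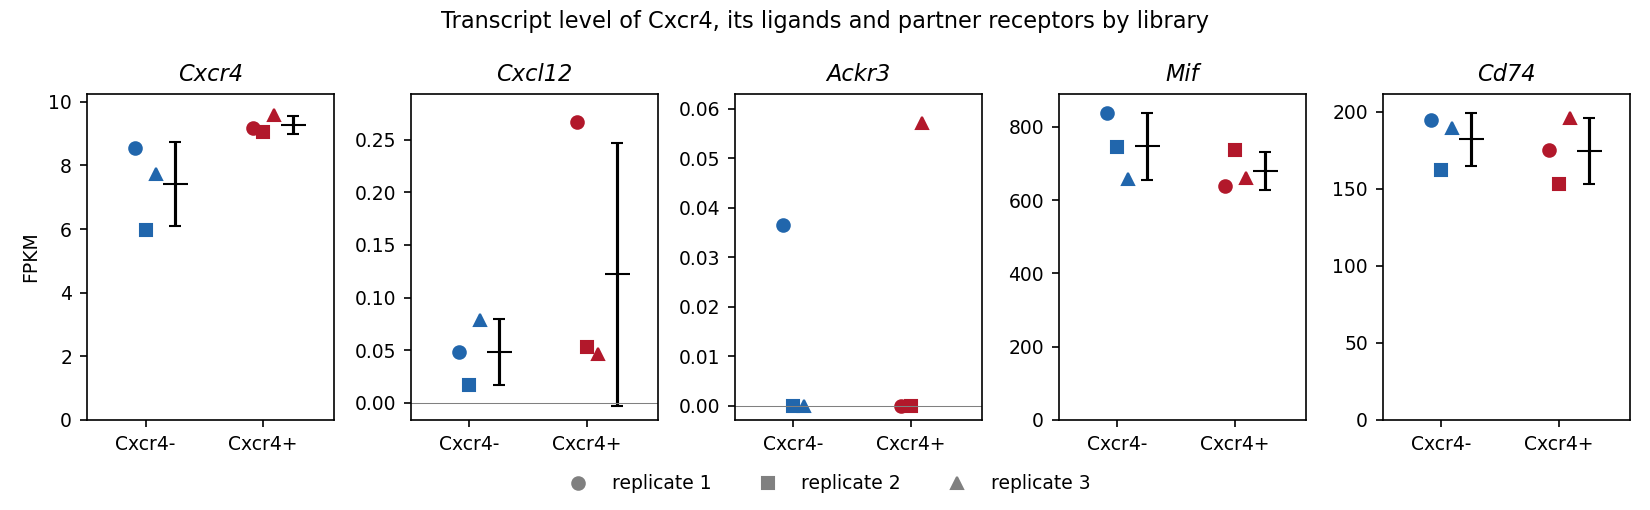
FPKM of the 5 genes in each library (symbols: replicate number; blue: Cxcr4-, red: Cxcr4+), each panel with its own linear axis; bars are mean ± SD of 3 libraries, left out for Ackr3, which is listed at 0 in 4 libraries. Only for Cxcr4 do the groups lie apart, at 9.04 to 9.59 against 5.97 to 8.56 FPKM.

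Of the 5 genes, 4 passed the filter on low counts and were tested, and 0 of these 4 passed edgeR's quasi-likelihood test at an adjusted p under 0.05, where 0.0312% of all 16031 genes tested did. At an unadjusted p under 0.05, 0 of the 4 passed as well, against 2.66% of all genes in the higher and 2.18% in the lower direction. DESeq2 called 0 of the 4, with 0.406% of all genes called. The groups lay apart with Cxcr4+ higher for 1 of the 4, Cxcr4 itself, against 5.50% of all genes tested. With Cxcr4+ lower they lay apart for 0 of the 4, against 780 of the 16031 genes tested. These shares are the background for every gene below whose groups did not overlap.

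Cxcr4, the receptor on which the cells were sorted, had 9.18, 9.04 and 9.59 FPKM in the Cxcr4+ libraries and 8.56, 5.97 and 7.73 FPKM in the Cxcr4- libraries, in the order of replicates 1 to 3. The Cxcr4+ libraries were close to each other, whereas the Cxcr4- libraries were spread and replicate 2 was lowest. The libraries labelled Cxcr4- held Cxcr4 RNA as well, from 604 to 909 counts a library against 929 to 1048. Which cells it came from cannot be told from bulk libraries. The log2 fold change, Cxcr4+ minus Cxcr4-, was 0.27 (SE 0.19, 95% interval -0.16 to 0.71, adjusted p = 0.999 by edgeR). The exact two-sided permutation test of the FPKM gave p = 0.1, the smallest that 3 against 3 libraries allow. Leaving out Cxcr4- replicate 2 moved the log2 fold change to 0.11, and leaving out Cxcr4- replicate 1 moved it to 0.44. Since the sort used Cxcr4, these values are not a finding. They are RNA levels, and the receptor protein was not measured here. They therefore neither verify the labels nor show how well the sort worked. The gene lies on the reverse strand of chromosome 1 (128515936 to 128520030 in GRCm39, the build of all gene positions here), no other gene of the table overlaps it, and no near-identical copy was found among annotated transcripts.

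Cxcl12, the chemokine ligand shared by Cxcr4 and Ackr3 and known as a product of stromal cells, was close to the detection limit in 5 of the 6 libraries. It had 0.266, 0.0532 and 0.0468 FPKM in the Cxcr4+ libraries and 0.0486, 0.0165 and 0.0790 FPKM in the Cxcr4- libraries. These levels rest on 140, 27 and 23 counts and on 24, 8 and 35 counts. Only Cxcr4+ replicate 1 stood out, 3.37 times above the next library, and the other Cxcr4+ libraries lay within the range of the Cxcr4- group.

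The log2 fold change of Cxcl12 was 1.31 (SE 0.85, 95% interval -0.67 to 3.29, adjusted p = 0.999 by edgeR), and the exact permutation test gave p = 0.5. Without Cxcr4+ replicate 1 it was 0.01 (SE 0.75), and without Cxcr4- replicate 2, the library with 8 counts, it was 0.89. Fibroblast markers were highest in the same library, with a sum of 17.4 FPKM beside 3.55 and 4.26 for Cxcr4+ replicates 2 and 3 and 2.37 to 3.31 for the Cxcr4- group. Every Cxcr4+ library lay above every Cxcr4- library in this sum. For Sparc, Col3a1, Col6a1 and Pdgfra the groups lay apart as well, and for the other fibroblast genes they did not. Of all genes tested, 5.50% lay apart with Cxcr4+ higher. Without Cxcr4+ replicate 1 the log2 fold change of Sparc was 1.03 (SE 0.23, adjusted p = 0.962 by edgeR), beside 1.91 with it. No fibroblast gene passed the test. Of the 11 fibroblast genes, 10 were above 0 somewhere and 2 had a mean of at least 1 FPKM, while Lum was listed at 0 in all libraries. Of the 10, 8 were highest in Cxcr4+ replicate 1, Col1a1 (5.83 FPKM), Sparc (5.20) and Col1a2 (2.75) adding most to the sum, whereas Fap was highest in Cxcr4- replicate 1 (0.404 FPKM, 0.175 in Cxcr4+ replicate 1) and Dcn in Cxcr4- replicate 3. The part of such cells in the Cxcl12 level was not tested. Cxcl12 lies on the forward strand of chromosome 6 (117145496 to 117158328).

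**Figure D2:**
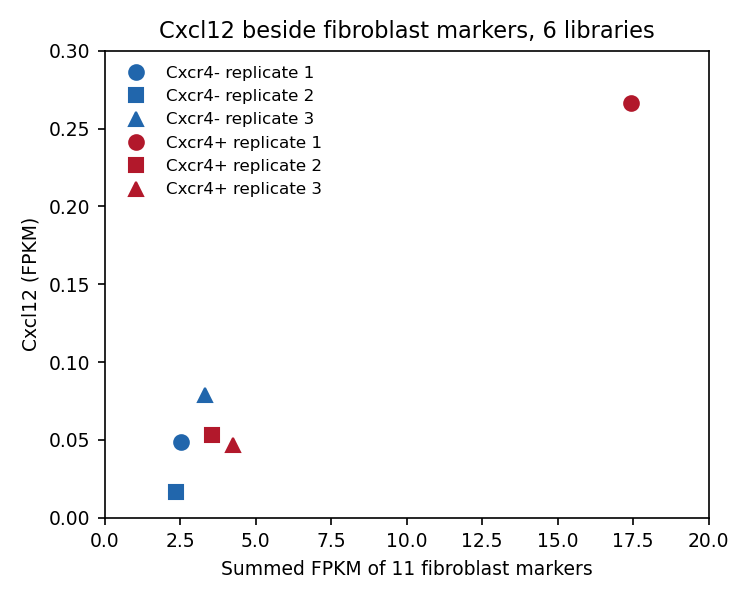
Cxcl12 (FPKM, vertical axis) against the summed FPKM of 11 fibroblast markers (horizontal axis), 1 point per library. Cxcr4+ replicate 1 stands alone at 17.4 and 0.266 FPKM. On the horizontal axis the other Cxcr4+ libraries lie at 3.55 and 4.26, above the Cxcr4- libraries at 2.37 to 3.31. On the vertical axis these 5 libraries lie at 0.0165 to 0.0790 FPKM.

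Ackr3, the scavenging receptor for Cxcl12, was hardly detected. It was listed at 0 in 4 libraries and had 12 counts in Cxcr4+ replicate 3 (0.0572 FPKM) and 7 counts in Cxcr4- replicate 1 (0.0365 FPKM). A count of 0 is compatible with up to 3 fragments, about 12 counts in this table, so both groups were at or under that limit, no fold was computed and the gene was not tested. The limit covers counting error only. Endothelial cells, which are known to carry Ackr3, left little trace: Cldn5 and Erg were listed at 0 in all libraries and the 8 markers summed to 0.134 to 0.455 FPKM. Ackr3 lies on chromosome 1, forward strand, from 90131702 to 90144473.

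Mif, the cytokine ligand of Cd74, was among the most abundant transcripts of both groups. It had 639.6, 738.0 and 661.0 FPKM in the Cxcr4+ libraries and 838.0, 745.8 and 656.6 FPKM in the Cxcr4- libraries. The highest value was that of Cxcr4- replicate 1, and the groups overlapped. The log2 fold change was -0.15 (SE 0.11, 95% interval -0.41 to 0.12, adjusted p = 0.999 by edgeR; exact permutation p = 0.3), and without Cxcr4- replicate 1 it was -0.02. The interval holds differences of either sign.

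Mif is a short gene on chromosome 10 (reverse strand, 75695187 to 75696074) with processed copies elsewhere in the genome, so the reading of its level depends on how fragments were shared out. A search of GENCODE M21 transcripts found 7 genes of at least 90% identity over at least 100 bases, and all 7 are in the table. Together they held 200 to 347 counts a library, 0.673 to 1.15% of the Mif count. The largest share went to C230062I16Rik (159 to 293 counts), which matches Mif over 508 bases at 99.4% identity. Of the processed pseudogenes, Mif-ps4 on chromosome 7 had 0 counts in every library and Mif-ps6 on chromosome 9 had 24 to 60.

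The following stretch of coding bases 4 to 63 of Mif, beside the same stretch of these 2 copies, shows how few letters part them. It was read from GENCODE M21 transcripts, 5′ to 3′ on the Mif sense strand, and capitals mark the positions at which any of the 3 sequences differs:
Mif: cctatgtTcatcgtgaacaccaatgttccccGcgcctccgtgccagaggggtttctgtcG
Mif-ps4: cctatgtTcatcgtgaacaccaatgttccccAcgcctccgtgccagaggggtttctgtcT
Mif-ps6: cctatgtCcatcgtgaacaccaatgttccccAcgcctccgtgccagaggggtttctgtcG
Over all 348 coding bases Mif-ps4 differed from Mif at 3 positions and Mif-ps6 at 6. Fragments that cover none of these letters cannot be assigned by sequence, and how the authors treated them is not given in the sources used here.

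Ddt encodes D-dopachrome tautomerase, the relative of Mif that also binds Cd74. It had 23.8, 26.4 and 18.3 FPKM in the Cxcr4+ and 21.9, 27.1 and 19.4 FPKM in the Cxcr4- libraries, and its groups overlapped. Mif was 26.9 to 38.2 times the level of Ddt within a library. The log2 ratio of Mif to Ddt was 4.91 ± 0.233 (SD, n = 3) in Cxcr4+ and 5.04 ± 0.240 (n = 3) in Cxcr4- libraries, with an exact permutation p of 0.6 (0.6 after Benjamini-Hochberg adjustment over 2 ratios).

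Cd74, the receptor for Mif and the invariant chain of MHC class II, had 175.2, 153.0 and 195.7 FPKM in the Cxcr4+ libraries and 194.5, 162.0 and 189.2 FPKM in the Cxcr4- libraries. Replicate 2 was lowest in both groups, and the groups overlapped. The highest value was that of Cxcr4+ replicate 3, the library with the highest B cell marker sum, whose part in the Cd74 level was not tested. The log2 fold change was -0.06 (SE 0.15, 95% interval -0.41 to 0.28, adjusted p close to 1 by edgeR; exact permutation p = 0.7), and its sign turned without Cxcr4+ replicate 2 (0.052) or Cxcr4- replicate 1 (0.016). The gene lies on the forward strand of chromosome 18 (60936920 to 60945718) and encloses the microRNA gene Mir5107, which had 4 to 26 counts.

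The class II genes that Cd74 serves were far lower than Cd74 itself. H2-Eb1, a beta chain, had 3.21 ± 0.765 FPKM (SD, n = 6 libraries), and H2-Aa, an alpha chain, 0.234 ± 0.0357. H2-Ab1, another beta chain, ranged from 1.16 to 1.87 FPKM. H2-DMa, a chain of the peptide exchange factor H2-DM, had 2.57 ± 0.270 FPKM, while its partner H2-DMb1 was listed at 0 in all libraries and H2-DMb2 in 5 of them. H2-DMa had 432 to 619 counts in the same libraries, and whether its partners were absent or not counted cannot be told apart here. H2-Ob, a chain of the H2-DM inhibitor H2-O, had 0.0639 to 0.171 FPKM. Ciita, the transactivator of class II genes, was at 0 in 4 libraries and at most 0.0071 FPKM in the rest. Within a library Cd74 stood 158 to 193 times above the geometric mean of H2-Aa, H2-Ab1 and H2-Eb1.

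A difference between the groups in this excess was not shown. The log2 ratio was 7.33, 7.30 and 7.59 in the Cxcr4+ and 7.48, 7.48 and 7.44 in the Cxcr4- libraries, an exact permutation p of 0.4 (0.6 adjusted over 2 ratios). B cells and dendritic cells, which carry both Cd74 and class II, had markers near 0: Cd22, Cd209a and Ccr7 were listed at 0 in all libraries, 5 of 6 B cell and 4 of 6 dendritic cell markers were above 0 in any library, and the sums were 0.156 to 0.621 and 0.0561 to 0.178 FPKM. Of the 9 class II partners 6 were tested, 4 with a positive and 2 with a negative log2 fold change, median 0.08 (-0.10 with a stricter filter on low counts), and 0 passed. The median of all genes tested was 0.00041.

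**Figure D3:**
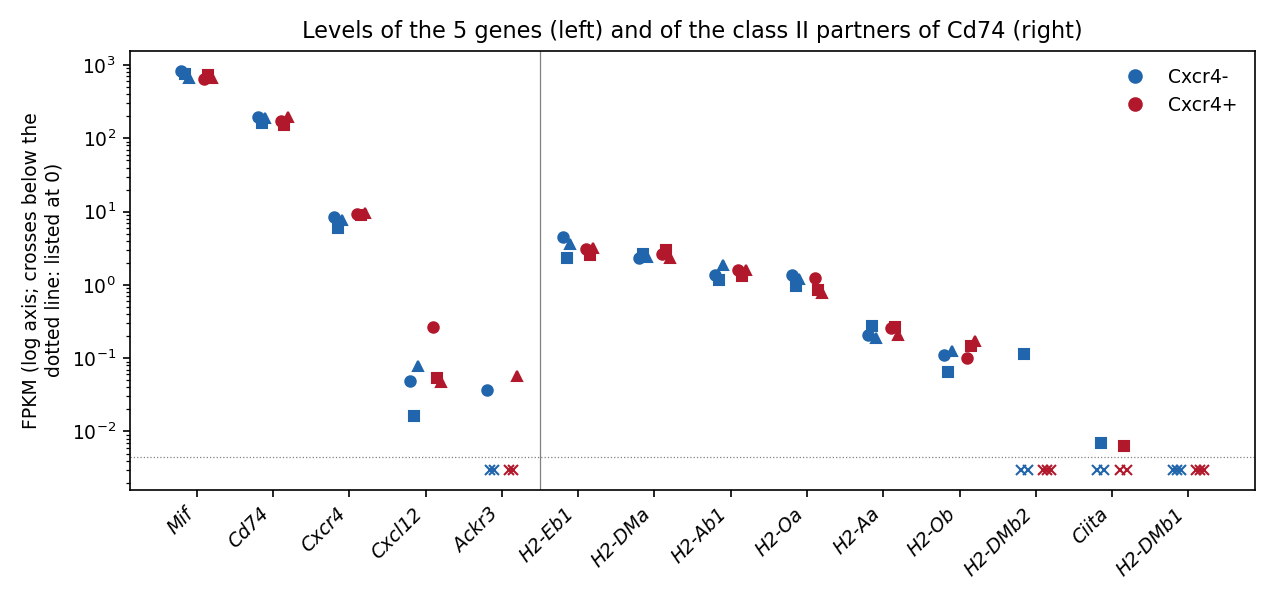
FPKM per library on a log axis for the 5 genes (left of the line) and the class II partners of Cd74 (right), blue for Cxcr4- and red for Cxcr4+; crosses under the dotted line mark libraries in which a gene is listed at 0. Mif and Cd74 stand at 153 FPKM and above, the class II partners at or below 4.49 FPKM.

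The wider axis was described through 8 lists of genes ordered by role, 84 genes in all. Of these, 76 were tested, 41 with a positive and 35 with a negative log2 fold change, and 0 passed the edgeR test. At an unadjusted p under 0.05 there were 4 of 76 (5.26%), beside 4.85% of all genes, and DESeq2 called 0. The log2 fold change lay within 0.5 of 0 for 72 of the 76. Of 189 genes that the deposited table assigns to the KEGG chemokine signalling pathway, 133 were tested, 64 positive and 69 negative, with a median of -0.0041 and 0 called by edgeR or DESeq2.

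Of 5 other reported ligands of these receptors and partners of Cxcl12, 1 had a positive and 4 a negative log2 fold change, with a median of -0.38, and 0 passed the test. Hmgb1, a nuclear protein that binds Cxcl12 when released, had 2.94, 2.99 and 3.12 FPKM in Cxcr4+ and 3.80, 5.68 and 2.41 FPKM in Cxcr4- libraries. Adm, the peptide adrenomedullin that Ackr3 can scavenge, had 4.77 ± 1.83 FPKM (SD, n = 3) in Cxcr4+ and 6.21 ± 2.16 (n = 3) in Cxcr4- libraries. Cxcl11, a chemokine that Ackr3 also binds, had 0.0338 to 0.114 FPKM in Cxcr4+ and 0.0378 to 0.298 FPKM in Cxcr4- libraries. The groups overlapped for all 5, and the median was -0.083 without Cxcr4+ replicate 2, -0.087 without Cxcr4- replicate 2 and -0.12 without Cxcr4- replicate 3.

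Genes that handle Cd74 or Mif were positive for 6 of 7 with a median of 0.21, and 0 of the 7 passed. Leaving out Cxcr4+ replicate 3 brought that median to 0.11, and leaving out Cxcr4- replicate 2 brought it to 0.14. The lysosomal proteases that trim the invariant chain were abundant. Ctsl, cathepsin L, had 201.9, 217.3 and 206.1 FPKM in Cxcr4+ and 178.0, 191.6 and 169.7 FPKM in Cxcr4- libraries, with groups that did not overlap. Its log2 fold change of 0.21 (SE 0.07) had an adjusted p of 0.993 in edgeR. Ctss, cathepsin S, had 259 ± 29.6 against 224 ± 15.4 FPKM and Lgmn, legumain, 236 ± 4.25 against 212 ± 9.73 (SD, n = 3 each). Sppl2a, the intramembrane protease that removes the last fragment of Cd74, had 2.71 to 2.97 FPKM in Cxcr4+ and 2.06 to 2.71 FPKM in Cxcr4- libraries. The groups did not overlap for Lgmn and Sppl2a either, as for 5.50% of all genes tested with Cxcr4+ higher.

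Cxcr2, another receptor that Mif can engage, was the member of that list with a negative value. It had 0.0577, 0.229 and 0.177 FPKM in Cxcr4+ and 0.297, 0.847 and 0.336 FPKM in Cxcr4- libraries. Its log2 fold change of -1.66 (SE 0.58) had an adjusted p of 0.998 in edgeR. All values were under 1 FPKM and the groups did not overlap, as for 780 of the 16031 genes tested with Cxcr4+ lower. Cxcr2 is also a receptor of neutrophils, whose 8 markers summed to 6.39 to 9.28 FPKM in Cxcr4+ and 6.73 to 9.39 in Cxcr4- libraries, and their part in the Cxcr2 level was not tested. S100a8 carried most of that sum (202 to 351 counts), while S100a9, Ngp and Camp were listed at 0 in all libraries, which does not show that S100a9 was absent. Cd44, the signalling partner of Cd74, had 14.9 ± 2.93 against 12.3 ± 2.16 FPKM (SD, n = 3 each).

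Of 6 proteases known to cut Cxcl12, 3 were tested, Dpp4, Ctsg and Elane being too low. Mmp9, a gelatinase, was the abundant one, at 20.4, 18.9 and 15.7 FPKM in Cxcr4+ and 25.2, 22.0 and 19.2 FPKM in Cxcr4- libraries (log2 fold change -0.28, SE 0.14). Mmp2 and Mmp14 had 0.606 and 0.545 FPKM in Cxcr4+ replicate 1, the library with the most Cxcl12 and fibroblast markers, and at most 0.234 and 0.113 FPKM in the other 5. Their log2 fold changes were 0.95 and 1.75 with that library and -0.21 and 0.35 without it.

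Most of the signalling chain below Cxcr4 was measured in both groups, and 0 of its genes passed the test. Among 9 of 10 G protein subunits tested the median log2 fold change was -0.02, from -0.26 for Gng2, a gamma subunit with 8.76 to 9.33 against 9.52 to 12.8 FPKM, to 0.10 for Gnaq. Gnai2, the main inhibitory alpha subunit of leukocytes, had 74.0 ± 3.48 against 74.8 ± 4.62 FPKM and Gnb1, a beta subunit, 75.0 ± 4.44 against 76.5 ± 3.85 (SD, n = 3 each). Gnai1 was listed at 0 in all libraries.

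Genes that switch off or sort the receptor had a median of 0.06, with 11 of 15 positive. Arrb2, beta-arrestin 2, had 62.9, 63.7 and 64.3 FPKM in Cxcr4+ and 58.3, 57.0 and 56.8 FPKM in Cxcr4- libraries, a small difference with no overlap (log2 fold change 0.14, SE 0.08). The receptor kinase Grk6 had 9.90 ± 0.511 against 11.6 ± 1.30 FPKM and Grk2 41.7 ± 3.81 against 43.0 ± 5.15 (SD, n = 3 each). Itch, the ubiquitin ligase that directs Cxcr4 to lysosomes, had 6.06 to 7.07 against 6.80 to 7.74 FPKM. None of these genes passed the edgeR test.

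Effectors of signalling and migration had a median of -0.04, with 8 of 24 positive and 0 called. The 2 genes of smallest p in this list were catalytic subunits of phosphoinositide 3-kinase. Pik3cg, the gamma subunit coupled to chemokine receptors, had 3.84 ± 0.816 against 2.86 ± 0.648 FPKM and Pik3cd, the delta subunit, 11.9 ± 0.904 against 14.3 ± 1.81 (SD, n = 3 each). The groups overlapped for both. Their log2 fold changes were 0.42 (SE 0.18) and -0.26 (SE 0.11). The catalytic subunits Pik3ca and Pik3cb, tested in the KEGG list, had -0.15 and -0.10. None of these subunits passed the test, so their signs do not set Pik3cg apart. Rac2, a small GTPase of blood cells that acts on the actin skeleton, had 216 to 224 against 228 to 243 FPKM and Cdc42 104 to 107 against 91.5 to 101 FPKM, both without overlap and neither past the test.

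Transcription factors and other regulators reported for Cxcr4 had a median of 0.13 over 7 genes, 5 positive and 0 called, and a median of -0.02 without Cxcr4+ replicate 1. Hif1a, the oxygen-sensing factor under which Cxcr4 can be induced, had 20.4 ± 3.15 against 19.5 ± 2.57 FPKM. Its relative Epas1 had 2.46 ± 0.469 against 2.003 ± 0.0724 FPKM (SD, n = 3 each), without overlap (log2 fold change 0.28, SE 0.14). Nrf1 and Yy1, an activator and a repressor of the Cxcr4 promoter, had 1.88 ± 0.307 against 1.62 ± 0.196 and 19.3 ± 1.27 against 20.5 ± 1.79 FPKM (SD, n = 3 each).

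**Figure D4:**
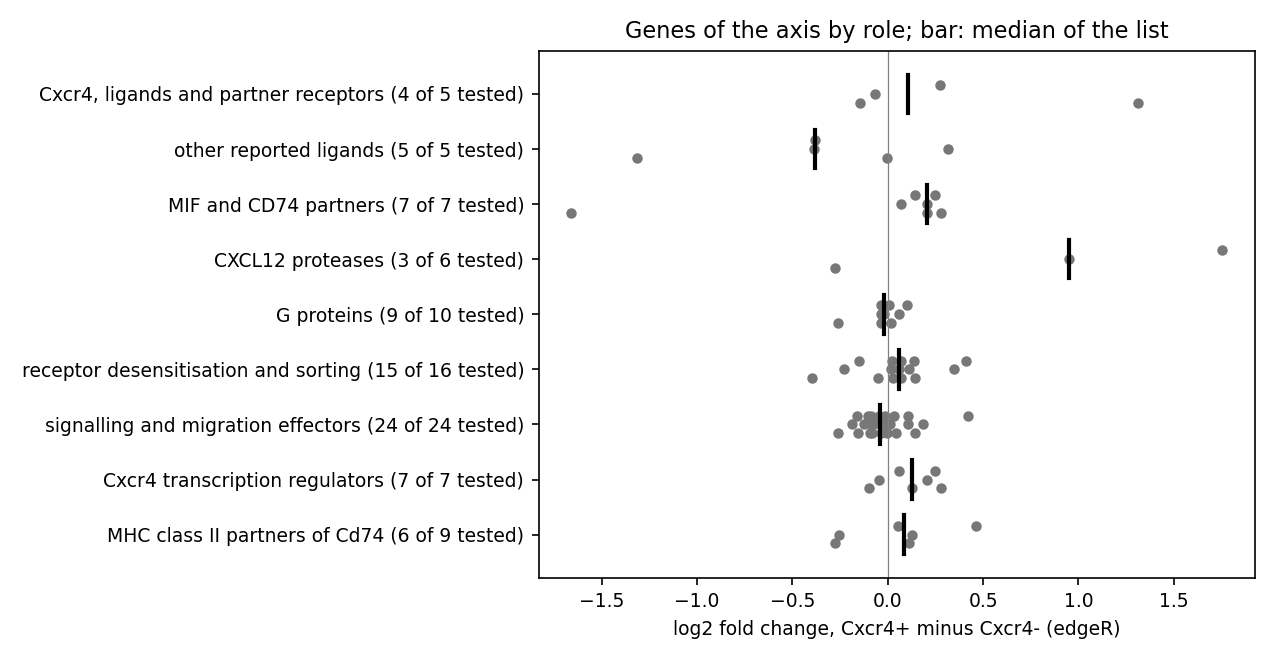
Log2 fold change, Cxcr4+ minus Cxcr4- (edgeR), of each tested gene (points) by role list, with the list's median as a bar. Most points lie within 0.5 of 0; those farther out include Cxcl12 (1.31), Mmp14 (1.75), Cxcl11 (-1.31) and Cxcr2 (-1.66), all under 1 FPKM.

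Tested genes whose mean reached 1 FPKM were compared with each member, leaving out pseudogenes and predicted genes with Gm or Rik names. The genes whose levels over the 6 libraries ran most like those of a member were ranked by Pearson's r of log2 CPM, counts scaled to library size. This is a description of 6 points that share libraries and scaling. For Cxcr4, among 9438 genes, they were Tmem263 (r = 0.996), Raly (0.994), an RNA-binding protein, and Stil (0.991), a centriole protein, all lowest in Cxcr4- replicate 2. For Mif they were Mrpl32 (0.993), a mitochondrial ribosomal protein, Eno1 (0.987), the glycolytic enolase, and Flii (0.987), an actin-binding protein. For Cd74 they were the kinase Pkn3 (0.994), Bst2 (0.994), the antiviral protein tetherin, and Trim32 (0.990), a ubiquitin ligase. For Cxcl12 they were Gcc1 (0.987), Tbl1xr1 (0.983) and the kinesin Kif5b (0.973). The Cxcl12 pattern is that of a high library, Cxcr4+ replicate 1, and a low one, Cxcr4- replicate 2 (8 counts, under the limit of about 12).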

How the data were processed

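The tools cutadapt, HISAT2 and StringTie and the build GRCm39 are named per the submitters' processing notes. Their versions, the annotation release, the counting settings and any use of strand were not given in the sources used here. Without strand information, reads of overlapping genes on opposite strands cannot be told apart. The authors deposited, for 6 libraries, 1 estimated count per gene and library, already whole and not normalized, per the file headers and values. The authors also deposited FPKM, scaled to gene length and library size, per the file headers. FPKM stands at a constant minimum where the count is 0, read as 0. Of counts from 1 to 20, 43.2% were multiples of 4 (25% if evenly spread), so low counts overstate fragments and 3 fragments, or 12 counts, served as the floor.

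Counts were fitted over 16031 genes with edgeR 4.0.16 in R 4.3.3 (quasi-likelihood test, earlier dispersion method, filterByExpr with minimum count 10 and total 15, TMM scaling, group as sole term, Benjamini-Hochberg adjustment); the standard error is the size of the log2 fold change over the square root of F. The procedure was run on simulated data. That run set no requirement on recovering the smaller simulated differences, so it does not show that small differences would be found. Exact permutation tests used scipy 1.17.1. Copies of members were searched with BLAST 2.17.0 in GENCODE M21 (GRCm38) and matched by gene identifier, with no coordinates taken from that release.

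The members and lists were chosen with earlier results of these data known, and the KEGG list was added later. The members were named by rule, with the 2 genes of smallest p and the 2 of highest mean FPKM in each role list. The 3 genes most like each tested member were named by rule too. Genes given beyond that rule were chosen after their values were seen. They were Cd44, Sppl2a, H2-Ab1, H2-Aa, Ciita and the other low class II genes, Gnai1, Pik3ca, Pik3cb and cell type markers. Alternatives were other scalings, filters, tests and pseudocounts, counts divided by 4, blocks, and leaving out libraries. Figures were drawn with matplotlib 3.10.9.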

Additional observations from a re-analysis of the deposited data

How the results depend on the processing

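None of the 4 tested members, and none of the 84 genes in the role lists, passed an adjusted p under 0.05 in edgeR, DESeq2 1.42.0 or limma 3.58.1 under any alternative run. The number of genes past the threshold over the whole table, 5 in edgeR, was 65 with DESeq2, 2 with limma-trend on log2(FPKM + 1), 0 with the replicate block, and 1 to 9 when each library was left out in turn. Cxcr4 stayed positive (0.11 to 0.44), as did Cxcl12 (0.0064 to 1.84), and Mif stayed negative (-0.22 to -0.02), over all alternatives that gave a value. Cd74 changed sign without Cxcr4+ replicate 2 (0.052) and without Cxcr4- replicate 1 (0.016), within -0.17 to 0.052 over left-out libraries. With the replicate block the log2 fold changes were 0.30 for Cxcr4, 1.11 for Cxcl12, -0.14 for Mif and -0.07 for Cd74. Same-numbered libraries correlated at 0.04, 0.14 and 0.05 in their deviations from the group means. Libraries numbered 2 correlated at -0.089 to -0.055 with libraries of other numbers in the other group. Cxcr4+ replicate 1 correlated slightly better with Cxcr4- replicate 3 (0.052) than with Cxcr4- replicate 1 (0.038), so the numbers were not taken as pairs. With the libraries numbered 2 as a block, Cxcr4 stood at 0.30 (adjusted p = 0.546 by edgeR), and 0 members passed. In the libraries numbered 1 and 3 alone, an alternative chosen after seeing the data, Cxcr4 stood at 0.17. Cxcl12 gave no value with the stricter filter or with counts divided by 4, which removed it. The median for the Cxcl12 proteases, 0.95 over 3 genes, was 0.07 without Cxcr4+ replicate 1 and -0.28 with the stricter filter or counts divided by 4; the cause of the last was that fewer genes were tested. The ratio of Cxcr4 to Ackr3 was not computed, since Ackr3 was at 0 in 4 libraries. Low counts and 3 libraries a group limit what can be said of Cxcl12, and low counts left Ackr3 untested. The Cxcl12 value fell to 0.0064 without Cxcr4+ replicate 1 and to 0.89 without Cxcr4- replicate 2.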
